A study of Homo sapiens with 4 samples.

Results

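The members described here are the nuclear genes for subunits of the mitochondrial respiratory chain and ATP synthase. They were taken from the table by gene symbol alone: NDUF symbols with A, B, C, S or V and a number, SDHA to SDHD, all UQCR symbols, CYC1, COX4 to COX8 subunits and all ATP5 symbols, without pseudogenes and antisense entries. This gave 82 of the 13165 genes in the table, namely 38 for complex I, 4 for complex II, 10 for complex III, 13 for complex IV and 17 for complex V. RNA came from TPC1, a cell line derived from a human papillary thyroid carcinoma and grown in DMEM with fetal serum, in 2 groups of 2 libraries. TPC1-Vector cells carry the empty vector and TPC1-C1orf106 cells overexpress C1orf106, the older symbol of INAVA, and both were selected with puromycin at 0.5 μg/mL for 2 weeks, so each group is a stable line selected on its own. Whether each line is a pool or a clone, and whether its libraries came from separate cultures, the labels do not say. The authors deposited 1 FPKM value per gene and group, so the comparison rests on 1 value against 1 value, with no SD, no replicate check and no test, and the depth behind each value is unknown.

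The respiratory chain sits in the inner mitochondrial membrane. Complexes I and II pass electrons from NADH and succinate to ubiquinone, complex III passes them on to cytochrome c and complex IV to oxygen, and complex V (ATP synthase) uses the proton gradient so built to make ATP. Most subunits are encoded in the nucleus and imported, the remainder are encoded by mitochondrial DNA, and the nuclear genes are known as targets of NRF1, GABP (an ETS factor) and YY1. The subunits encoded by mitochondrial DNA were not analysed here.

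C1orf106 stood at 7.96 FPKM with the empty vector and at 122.5 FPKM with the overexpression construct, a log2 difference of 3.86. Log2 differences are those of log2(FPKM + 0.5), TPC1-C1orf106 minus TPC1-Vector, which understates differences of weak genes, and genes averaging 0.5 FPKM or more over the groups were compared (12305 genes, with a median log2 difference of 0.0033). Of the 9 thyroid markers PAX8 (60.1 and 55.7 FPKM) and FOXE1 (5.26 and 5.89 FPKM) had values, and the others, TG, TSHR and NKX2-1 among them, were not analysed here. Of 8 leukocyte and endothelial markers CD14 was at 0.295 and 0.236 FPKM and CD68 at 5.76 and 8.67 FPKM, of 5 fibroblast markers PDGFRB was at 2.24 and 1.39 FPKM, COL1A1 at 0.937 and 0.571 FPKM and LUM at 0.383 and 0.225 FPKM, and of 6 epithelial markers 3 had values. KRT18 was at 140.3 and 211.7 FPKM, KRT8 at 23.4 and 10.5 FPKM and KRT7 at 1.97 and 2.01 FPKM. KRT18 and KRT8 share a deposited position, so reads may be divided between their entries, which was not tested. The part of all the markers above in the values given next was not tested. In bulk RNA fewer cells of a type and less RNA per cell cannot be told apart. SNORA57, a small nucleolar RNA, held 77.4% of the summed FPKM of the TPC1-Vector column. The highest value of any gene compared was 1574000 FPKM in that column and 4135 FPKM in the TPC1-C1orf106 column. Shares are therefore given below over protein-coding genes.

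Promoters of 6 members are shown. SDHA and UQCR11 are examples of repeated motif matches, which other members, ATP5I and NDUFB4 among them, also held. NDUFAB1, UQCR10, ATP5E and NDUFB8 are shown because they passed 1.2-fold in what follows. Each is the stretch that ends 1 base before the transcription start (for UQCR10, 2 bases further, where its match ends), 5′ to 3′ on the strand of the gene, as given by RefSeq on GRCh38.p14, with matches to the motifs searched (NRF1, GCGCNTGCG; ETS, CCGGAAGT; YY1, AAGATGGC; each on both strands) in capitals. SDHA (chr5:218140-218319, forward strand) held 4 NRF1 matches, at -165, -116, -67 and -18, each 49 bases after the one before. UQCR11 (chr19:1605463-1605582, reverse strand) held an ETS match and 2 NRF1 matches. UQCR10 (chr22:29767279-29767370, forward strand) held an NRF1 match that spans the start, from -7. NDUFAB1 (chr16:23596317-23596406), ATP5E (chr20:59032336-59032425) and NDUFB8 (chr10:100529924-100530013), all on the reverse strand, held no match in the stretch shown. Of the 7 members past 1.2-fold, 5 had a promoter sequence, and 1 of these held a match in the whole window searched.
SDHA: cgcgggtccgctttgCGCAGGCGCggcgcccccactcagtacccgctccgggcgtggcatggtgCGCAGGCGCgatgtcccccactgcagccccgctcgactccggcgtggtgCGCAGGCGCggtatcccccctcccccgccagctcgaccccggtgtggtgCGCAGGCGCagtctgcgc
UQCR11: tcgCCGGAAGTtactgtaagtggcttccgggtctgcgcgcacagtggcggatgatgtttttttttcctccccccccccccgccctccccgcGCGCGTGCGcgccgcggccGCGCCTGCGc
NDUFAB1: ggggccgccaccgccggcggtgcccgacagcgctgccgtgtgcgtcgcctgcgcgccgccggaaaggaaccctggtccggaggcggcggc
UQCR10: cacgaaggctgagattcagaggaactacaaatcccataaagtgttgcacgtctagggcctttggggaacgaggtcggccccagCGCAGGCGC
ATP5E: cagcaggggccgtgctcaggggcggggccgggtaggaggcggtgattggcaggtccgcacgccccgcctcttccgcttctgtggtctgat
NDUFB8: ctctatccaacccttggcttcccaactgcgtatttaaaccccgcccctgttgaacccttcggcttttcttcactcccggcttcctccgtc

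Over the window from 250 bases before to 50 after the start, 65 of the 81 members compared had a promoter sequence. The NRF1 letters were in 21 of the 65 (32.3%), against 8.05% of 27305 promoters and 15.7% of the 9831 promoters of genes compared here. The YY1 letters were in 11 (16.9%), against 3.03% and 5.78%, and the ETS letters in 9 (13.8%), against 4.44% and 9.36%. The median log2 differences were 0.092 with and 0.079 without NRF1, 0.080 and 0.080 for YY1, and 0.080 and 0.080 for ETS. A match is a run of letters, not a bound site.

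Most subunits were slightly higher in TPC1-C1orf106. Of the 81 members compared, 59 were higher and 22 lower (72.8% higher), and the median log2 difference was 0.080, with the middle 50% between -0.0082 and 0.15. Among all genes compared, 50.8% were higher. From 20 FPKM upward, where 75 of the members lie, 56 of 75 (74.7%) were higher, against 55.3% of all 4179 genes at that level. The differences were small, and 91.4% of members lay within 1.2-fold in either direction.

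Of the 81 members compared, 4 were at least 1.2-fold higher (ATP5E, ATP5D, NDUFAB1 and UQCR10). This stands against 10.6% of all genes compared and 8.09% of genes at 20 FPKM or more. At least 1.2-fold lower were 3 members (NDUFB8, NDUFB5 and the readthrough entry NDUFC2-KCTD14), against 9.63% and 6.08% of genes. At 20 FPKM or more, 4 of 75 members were at least 1.2-fold higher and 2 at least 1.2-fold lower. Within 1.2-fold lay 92.0% of these members, against 85.8% of all genes at that level. In either direction the share of members past 1.2-fold was below that of genes, but the counts are too small to set the members apart. No member compared reached 1.5-fold. Without replicate values it is unknown how far 2 libraries of 1 group differ in these genes.

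**Figure D1:**
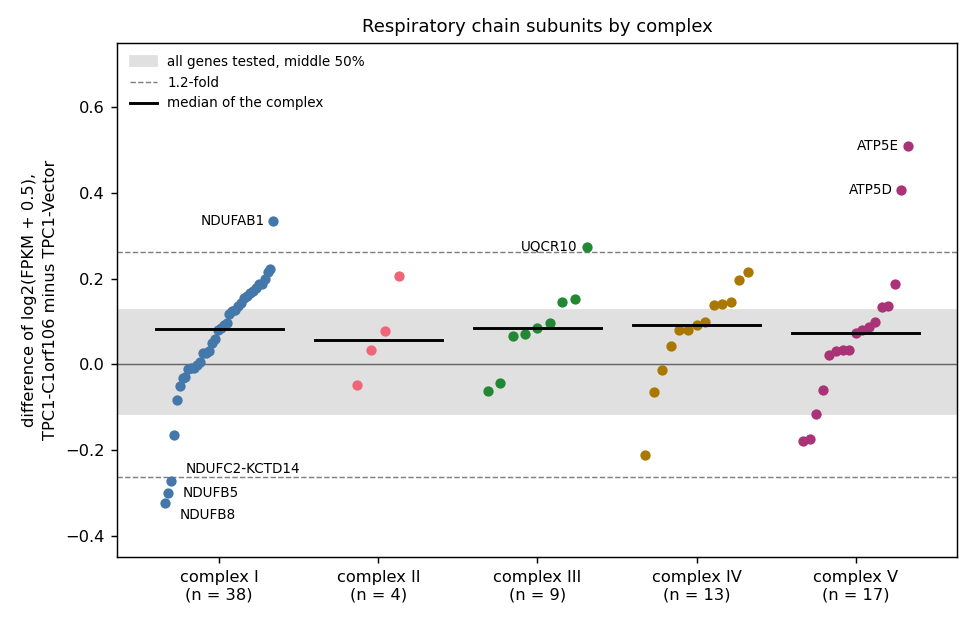
Difference of log2(FPKM + 0.5) between TPC1-C1orf106 and TPC1-Vector for the 81 members compared, 1 point per gene, ordered by value within each complex; black bars are medians, dashed lines mark 1.2-fold and the grey band holds the middle 50% of all 12305 genes compared. The medians lie between 0.057 and 0.092, and 7 named genes lie outside the dashed lines.

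The medians of the complexes were close to each other. The median log2 difference was 0.083 for complex I (26 of 38 higher), 0.057 for complex II (3 of 4), 0.085 for complex III (7 of 9 compared), 0.092 for complex IV (10 of 13) and 0.074 for complex V (13 of 17). Complex V depended on the scaling: after quantile normalization 9 of its 17 members were higher and 7 lower, with a median of 0.0074, while complex I kept 25 of 38 higher and complex IV 9 of 13. No complex stood apart, and the spread within each was larger than the distance between their medians: complex I members ranged from -0.32 to 0.33 and complex V members from -0.18 to 0.51. Leaving out readthrough entries, paralogues and 2 ATP5-named genes that are no subunits, 59 of 76 were higher with a median of 0.085. The summed FPKM of the members compared was 8610 in TPC1-Vector and 9143 in TPC1-C1orf106, a ratio of 1.06, and all members together held 1.914% and 2.004% of the summed FPKM of 11958 protein-coding genes.

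Complex I oxidises NADH and is the largest of the complexes. Its 7 nuclear core subunits, most of which carry the flavin or iron-sulfur clusters, lay near 0, with log2 differences from -0.050 to 0.13. NDUFV1, which binds NADH and FMN, was at 55.6 and 60.3 FPKM (TPC1-Vector first, here and in what follows, with the log2 difference after it where a further value is given). NDUFS8 was at 80.0 and 87.5 FPKM, with the highest log2 difference of the core subunits, 0.13. NDUFS1, the large iron-sulfur subunit, was at 44.2 and 42.7 FPKM, with the lowest log2 difference, -0.050. Between them lay NDUFS7 at 59.6 and 63.3 FPKM, NDUFS3 at 47.8 FPKM in both and NDUFV2 at 114.4 and 111.9 FPKM. None of the 7 reached 1.2-fold.

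The 30 supernumerary subunits of complex I surround this core and are needed for its assembly and stability. Of these, 22 were higher, with a median log2 difference of 0.094. NDUFAB1, the mitochondrial acyl carrier protein, which also serves fatty acid synthesis in mitochondria, was at 91.4 and 115.3 FPKM, a log2 difference of 0.33. It lies on chr16:23581013-23596318, and the 40 nearest other genes compared (20 on each side) had a median of -0.0086. NDUFC1 (25.2 and 29.5 FPKM, 0.22), NDUFC2 (14.1 and 16.4 FPKM, 0.22), NDUFS5 (141.4 and 162.5 FPKM, 0.20), NDUFA7 (20.3 and 23.2 FPKM, 0.19) and NDUFB2 (151.5 and 172.5 FPKM, 0.19) followed. All 5 stayed under 1.2-fold. Slightly lower were NDUFA1 (63.9 and 57.0 FPKM, -0.16), an X-linked subunit of the membrane arm, and NDUFA9 (55.01 and 51.87 FPKM, -0.084), which lies near the ubiquinone site. NDUFB9 (225.0 and 223.4 FPKM), NDUFA12 (128.7 and 128.0 FPKM), NDUFA2 (30.1 and 29.9 FPKM) and NDUFB6 (35.0 and 35.1 FPKM) had log2 differences of -0.010, -0.0084, -0.0082 and 0.0053, and the sign of NDUFB6 turned with quantile normalization. Beside NDUFB5 and NDUFB8, described next to their neighbours below, the other 16 lay between -0.030 (NDUFB1) and 0.18 (NDUFA3).

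The deposited table splits NDUFC2 between entries that share a position. NDUFC2-KCTD14, a readthrough transcript of NDUFC2 and its neighbour, was at 10.5 and 8.57 FPKM, a log2 difference of -0.27, whereas NDUFC2 itself was at 0.22. Their sum was 24.52 and 24.98 FPKM, so the opposite differences nearly cancelled. In all, 17 members share their deposited position with another gene, and reads of overlapping genes may be divided between entries, which was not tested.

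NDUFB8 and NDUFB5, both subunits of the membrane arm of complex I, had the lowest log2 differences of all members. NDUFB8 (chr10:100523728-100529923) was at 75.9 and 60.6 FPKM, a log2 difference of -0.32. NDUFB5 (chr3:179604786-179624500) was at 86.2 and 69.9 FPKM, a log2 difference of -0.30. Genes around both were lower by as much: the 40 nearest other genes had a median log2 difference of -0.33 at NDUFB8 and -0.32 at NDUFB5. Relative to their neighbours the subunits differed by 0.0073 and 0.018. The part of these surroundings in the values of both subunits was not tested.

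ATP5E had the highest log2 difference of all members and also lies among genes that were higher. It encodes the epsilon subunit of the central stalk of ATP synthase, at chr20:59028677-59042846, and was at 241.5 and 343.7 FPKM, a log2 difference of 0.51 and a ratio of 1.42. The 40 nearest other genes had a median of 0.37, and ATP5E exceeded them by 0.14. The position is shared with SLMO2 (32.6 and 47.2 FPKM) and with the readthrough entry SLMO2-ATP5E (0.0801 and 1.35 FPKM), and both were higher as well. NDUFB8, NDUFB5 and ATP5E were the 3 members of 79 with neighbours whose median was at least 0.2 in size. Without them 58 of 78 members were higher, with a median of 0.080, and 3 were at least 1.2-fold higher and 1 at least 1.2-fold lower.

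**Figure D2:**
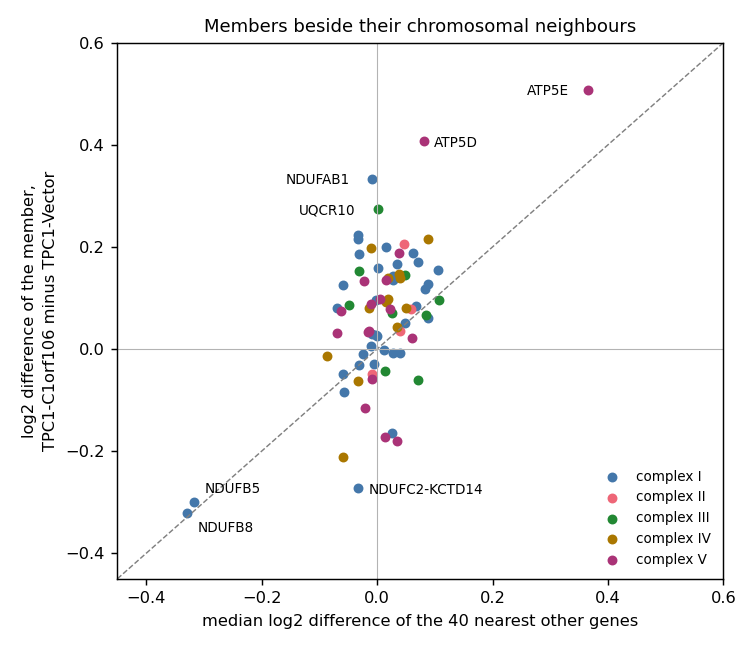
Log2 difference of each member (vertical) against the median log2 difference of its nearest other genes on the same chromosome, at most 40 (horizontal), for the 79 members on placed chromosomes; the dashed line marks equality. NDUFB8 and NDUFB5 lie on the line near -0.3, ATP5E above it at a neighbour median of 0.37, and most other members sit above neighbours that lie near 0.

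Most members were also higher than their neighbours. Of the 79 members with a neighbour value, 57 were higher than it, and the median of the differences was 0.049, against 0.080 before. How often other genes exceed their own neighbours was not determined, and neighbours were not matched for level. Non-member genes were higher in 63.2% of cases at 100 to 200 FPKM and in 47.4% at 5 to 20 FPKM. Members on chromosome 19, chosen for description after their values were seen, were higher in 9 of 10 cases with a median of 0.15, and 64.5% of the 761 other genes compared on that chromosome were higher with a median of 0.060. The 71 remaining members include NDUFA3 (0.18), which was listed on an alternate contig of chromosome 19 and was not counted there. Among these 71, 50 were higher, and the median log2 difference was 0.079. NDUFA3 and NDUFA6 were listed on alternate contigs and have no neighbour value.

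Complex II is succinate dehydrogenase, which is also an enzyme of the tricarboxylic acid cycle and the only complex of the chain made without mitochondrial DNA. SDHA, the flavoprotein that oxidises succinate, was at 86.1 and 99.3 FPKM, a log2 difference of 0.21. SDHB, the iron-sulfur subunit, was at 86.3 and 91.1 FPKM, with a log2 difference of 0.079. The membrane anchors SDHC (48.4 and 49.6 FPKM) and SDHD (80.2 and 77.5 FPKM) were at 0.034 and -0.049. The catalytic subunits were thus both slightly higher. The 4 levels lay within 1.78-fold of each other in TPC1-Vector, the narrowest range of any complex, but complex II also has the fewest members. The 4 peripheral stalk subunits of complex V lay within 1.97-fold. SDHA has near-identical pseudogenes, of which SDHAP1, SDHAP2 and SDHAP3 were at 4.12, 5.53 and 0.937 FPKM in TPC1-Vector and at 4.75, 5.71 and 0.890 FPKM in TPC1-C1orf106, so its value is uncertain to the extent that reads were divided among these copies.

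Complex III passes electrons from ubiquinol to cytochrome c. Its nuclear catalytic subunits were both slightly higher: CYC1, cytochrome c1, was at 199.3 and 213.2 FPKM (0.097) and UQCRFS1, the Rieske iron-sulfur protein, at 129.9 and 136.0 FPKM (0.066). UQCR10, a small subunit of the complex, was at 31.7 and 38.5 FPKM, a log2 difference of 0.27, with neighbours at a median of 0.0014. UQCRC2 (71.5 and 79.6 FPKM) and UQCR11 (37.9 and 42.0 FPKM) were at 0.15 each. UQCRC2 and UQCRC1 form the core proteins of the matrix arm, and UQCRC1 lay on the other side of 0, at 125.8 and 122.0 FPKM with a log2 difference of -0.044. UQCRB was at 39.4 and 37.7 FPKM (-0.061), UQCRH, the hinge protein, at 202.7 and 215.1 FPKM (0.085), and UQCRQ at 25.5 and 26.8 FPKM (0.070). UQCRHL, an intronless copy of UQCRH, was at 0.0968 and 0.289 FPKM, under the minimum for comparison.

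Complex IV is cytochrome c oxidase. The ubiquitous nuclear subunits, among them NDUFA4, which is named for complex I but has since been assigned to complex IV, were higher in 10 of 11 cases, with a median log2 difference of 0.099 (9 of 11 and 0.065 after quantile normalization, where COX7B was at 0). COX6C, at 104.4 and 121.3 FPKM, and COX6A1, at 266.3 and 305.4 FPKM, had the largest log2 differences, 0.22 and 0.20. COX7C, at 482.8 and 534.3 FPKM (0.15), was the most abundant member per length in either group. COX4I1, the largest nuclear subunit, was at 290.9 and 307.5 FPKM (0.080), COX5A at 127.1 and 140.0 FPKM (0.14), and COX8A at 330.5 and 353.9 FPKM (0.099). COX5B (106.8 and 112.9 FPKM), COX6B1 (65.7 and 72.4 FPKM) and COX7B (249.5 and 257.1 FPKM) had log2 differences of 0.080, 0.14 and 0.043. COX7A2 was the single ubiquitous subunit below 0, at 105.8 and 104.8 FPKM (-0.013).

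The isoforms used by other tissues, COX4I2, COX6A2, COX6B2, COX7A1, COX7B2 and COX8C, were not analysed here. NDUFA4L2, a paralogue of NDUFA4 known to be induced by hypoxia, was at 1.22 and 0.984 FPKM, against 46.7 and 49.8 FPKM for NDUFA4, so that it held 2.54% and 1.94% of their sum. COX7A2L, a supercomplex factor related to COX7A2, was at 99.1 and 94.8 FPKM (-0.063). Both paralogues were thus on the lower side, while NDUFA4 was at 0.092.

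Complex V, ATP synthase, makes ATP in its F1 head, driven by a central stalk that rotates with the c-ring of the membrane part Fo. The F1 subunits lay on both sides of 0. ATP5A1, the alpha subunit of the head, was at 466.9 and 431.0 FPKM (-0.12) and ATP5B, the catalytic beta subunit, at 475.2 and 500.2 FPKM (0.074, and 0 after quantile normalization), the next highest level after COX7C in TPC1-Vector. ATP5C1, the gamma shaft, was at 164.8 and 158.1 FPKM (-0.060). The small central stalk subunits had the highest log2 differences of the complex: ATP5D, the delta subunit (chr19:1241749-1244825), was at 82.1 and 109.0 FPKM, a log2 difference of 0.41 and a ratio of 1.33, beside neighbours at a median of 0.080, and ATP5E was at 0.51 as given above. Among the F1 subunits the levels per length ranged from 82.1 FPKM for ATP5D to 475.2 FPKM for ATP5B in TPC1-Vector, and from 109.0 to 500.2 FPKM in TPC1-C1orf106.

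The ATP5-named subunits of the peripheral stalk and of the membrane part Fo lay closer together. All 4 stalk subunits were slightly higher as deposited, but 3 of 4 after quantile normalization, where ATP5H was at -0.020. Their log2 differences as deposited lay between 0.032 for ATP5H (176.9 and 181.0 FPKM) and 0.14 for ATP5O, the oligomycin sensitivity protein (197.2 and 216.8 FPKM). All 6 Fo subunits named ATP5 were slightly higher as deposited, but 4 of 6 after quantile normalization, where ATP5G2 was at -0.027 and ATP5I at -0.033. As deposited they lay between 0.022 for ATP5I (130.1 and 132.1 FPKM) and 0.19 for ATP5L (54.5 and 62.1 FPKM). Subunits of the membrane part not named ATP5 fall outside the members. Of these, USMG5 (-0.31) and C14orf2 (47.8 and 43.9 FPKM, -0.12) were both lower. The genes ATP5G1, ATP5G2 and ATP5G3 encode the same mature c-ring protein with different import sequences. ATP5G1 made up 39.4% and 40.2% of their summed FPKM, ATP5G2 42.5% and 41.5% and ATP5G3 18.0% and 18.3%, so the mix of these genes was nearly the same in both groups. The ATP5-named genes that are no subunits were both lower: ATP5S at 3.80 and 3.31 FPKM (-0.17) and ATP5SL, an assembly factor of complex I, at 32.0 and 28.2 FPKM (-0.18).

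**Figure D3:**
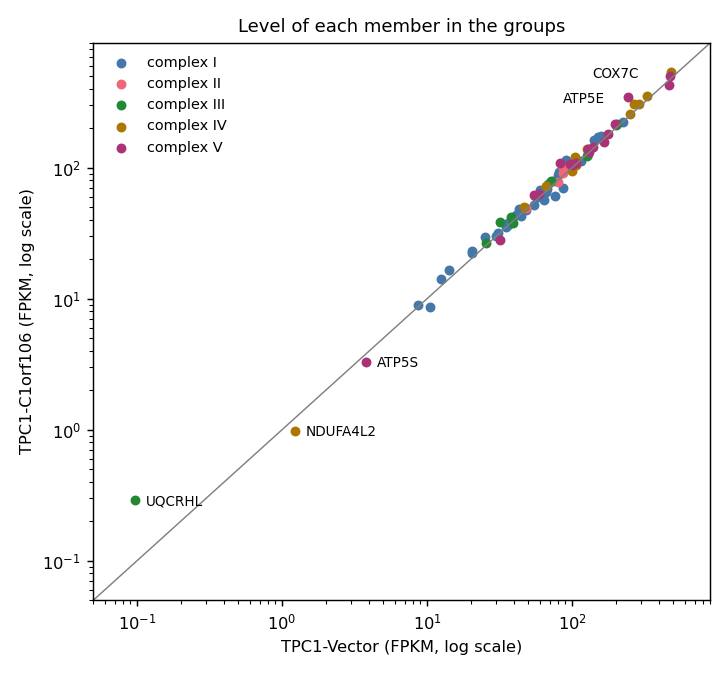
FPKM of each of the 82 members in TPC1-Vector (horizontal) and TPC1-C1orf106 (vertical), on log scales, coloured by complex; the line marks equal levels. Subunits of all complexes run along the line from 8.72 FPKM (NDUFA5) to 534.3 FPKM (COX7C), with UQCRHL, NDUFA4L2 and ATP5S apart at low levels.

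Levels within a complex differed far more than the groups did. Among the subunits proper, the highest and lowest value in TPC1-Vector were 25.8-fold apart in complex I (NDUFB9 and NDUFA5), 7.95-fold in complex III (UQCRH and UQCRQ), 10.3-fold in complex IV (COX7C and NDUFA4) and 8.73-fold in complex V (ATP5B and ATP5L). The median levels were 59.6 and 60.3 FPKM for complex I, 71.5 and 79.6 FPKM for complex III, 127.1 and 140.0 FPKM for complex IV and 130.1 and 138.4 FPKM for complex V. Members have short transcripts, with a median of 791 nucleotides against 2831.5 for other genes compared, by GENCODE release 29, and FPKM of transcripts not much longer than a sequenced fragment depends on how the length is corrected, which the sources used here do not give.

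Members were also set beside genes of like level, GC content and length. Other genes at the levels of the members were slightly higher too, with a median log2 difference of 0.029 at 50 to 100 FPKM, 0.037 at 100 to 200 FPKM and 0.034 at 200 FPKM or more. Members in these ranges had medians of 0.092, 0.073 and 0.091. Below 20 FPKM lie 6 of the members compared: the 4 at 5 to 20 FPKM had a median of 0.093, against -0.010 for other genes, and the 2 at 0.5 to 5 FPKM, ATP5S and NDUFA4L2, were both lower, with a median of -0.19 against -0.001. After subtraction of the median of non-member genes matched for GC percentage and length, 55 of 81 members were higher, with a median of 0.065.

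**Figure D4:**
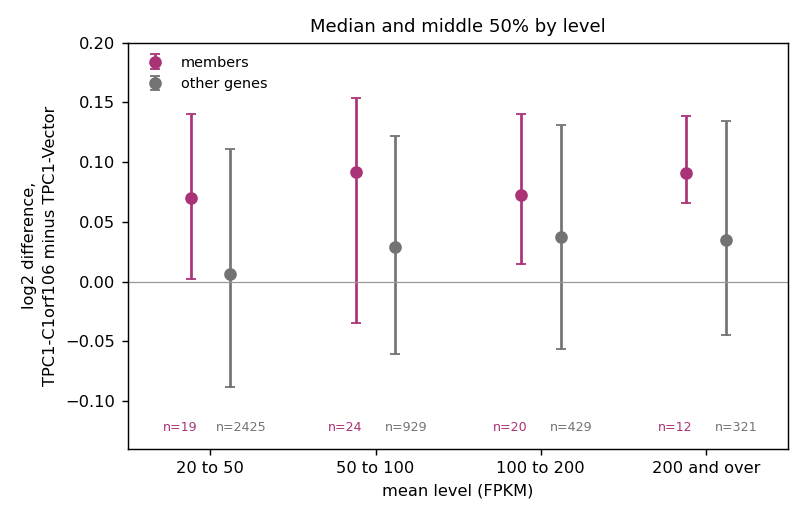
Median (point) and middle 50% (bar) of the log2 difference for members and other genes in 4 ranges of mean FPKM from 20 upward, with the number of genes under each. In each of these ranges the median of the members, 0.070 to 0.092, lies above that of the other genes, 0.0066 to 0.037, and the bars overlap.

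Factors that build the chain were mixed. The counts of this and the following lists stand beside 50.8% of all genes compared that were higher, and 48.3% after quantile normalization. At least 1.2-fold higher were 10.6% of all genes compared, and at least 1.2-fold lower 9.63%. Several list counts lie near these shares, such as the 56.2% of complex I assembly factors that were higher. Of 16 complex I assembly factors 9 were higher, with a median of 0.029, and C17orf89 (NDUFAF8), at 102.5 and 124.2 FPKM, was the 1 past 1.2-fold, with a log2 difference of 0.27, while TIMMDC1 was lowest at 27.0 and 23.9 FPKM (-0.17). All 4 complex II factors were higher, from SDHAF3 (0.038) to SDHAF1 (10.3 and 12.1 FPKM, 0.23). Of 6 complex III factors 5 were higher, with a median of 0.090, from UQCC2 (-0.024) to BCS1L, which inserts the Rieske protein (19.9 and 22.5 FPKM, 0.17).

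Of 23 complex IV factors 14 were higher (12 after quantile normalization), with a median of 0.052 and 2 at least 1.2-fold lower. COX17, a copper chaperone, was the highest with a log2 difference of 0.20. COX20 was at 13.1 and 9.98 FPKM (-0.38), beside neighbours at -0.0096, and COX15, which makes heme A, at 14.1 and 10.9 FPKM (-0.35), beside neighbours at -0.38 on chromosome 10. Of 7 ATP synthase factors and subunits not named ATP5, 2 were higher (1 after quantile normalization): TMEM70, an assembly factor, was at 32.8 and 37.6 FPKM (0.19) and ATPIF1, the inhibitor of the enzyme, at 124.1 and 124.7 FPKM. USMG5, a small subunit of the membrane part, was the lowest at 187.3 and 151.0 FPKM (-0.31), with neighbours at -0.28, also on chromosome 10.

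Of 12 genes for electron carriers, ubiquinone synthesis and supercomplexes 9 were higher (8 after quantile normalization), with a median of 0.10. CYCS, cytochrome c, was the highest at 40.1 and 46.8 FPKM (0.22) and COQ3 the lowest at 9.47 and 8.20 FPKM (-0.20). Of 13 tricarboxylic acid cycle genes 10 were higher (8 after quantile normalization), with a median of 0.051, from DLD (-0.053) to SUCLG2 (0.19). Of 77 mitochondrial ribosomal protein genes 52 were higher (43 after quantile normalization), with a median of 0.047. MRPL41 was the 1 at least 1.2-fold higher, at 123.1 and 151.3 FPKM (0.30), and the 3 at least 1.2-fold lower, MRPS16 (-0.50), MRPL43 (-0.49) and MRPL47 (-0.31), had neighbours at -0.37, -0.31 and -0.32. MRPL47 (chr3:179588465-179604646) is next to NDUFB5, and both were lower with their surroundings.

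Known regulators of mitochondrial gene expression, a list that includes factors acting on mitochondrial DNA, were not higher as a group. Of 13 compared, 4 were higher (3 after median-of-ratios scaling) and the median was -0.069. POLRMT, the mitochondrial RNA polymerase, was the highest at 23.4 and 26.8 FPKM (0.19). PPRC1, a coactivator of the PGC-1 family, was the lowest at 30.5 and 23.8 FPKM (-0.35) with neighbours at -0.32, and TFAM, which packages mitochondrial DNA, was at 45.7 and 37.3 FPKM (-0.29) with neighbours at -0.11, both on chromosome 10. PPARGC1B was at 1.48 and 1.63 FPKM (0.10). The factors whose motifs were searched were slightly lower: NRF1 was at 7.90 and 7.17 FPKM (-0.13) and YY1 at 46.4 and 44.2 FPKM (-0.069). The GABP genes GABPA, GABPB1 and GABPB2 were at -0.15, -0.17 and -0.029. Of these 13 genes, 9 were thus lower and 30.8% higher, against 50.8% of all genes compared that were higher. A link between these genes and the members was not tested.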

How the data were processed

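The authors deposited FPKM values (sequenced fragments per unit of transcript length and of library size), 1 per gene and group, made on hg38. The submitters' processing notes name CASAVA, Cufflinks 2.1.1 and Cuffdiff. The aligner, the annotation and strandedness are not given in the sources used here, and the labels and the study's methods name different library kits. The deposited table also holds the authors' log2 ratio, direction, p-value and q-value, which were not used. Both libraries of a group are combined, so no test could be made.

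Genes averaging 0.5 FPKM or more were kept, and differences of log2(FPKM + 0.5) were computed. With 1 value per group, a gene past 1.2-fold was counted as higher or lower. Neighbours were up to 20 nearest genes compared on each side, members left out, by the middle of the deposited position. GC content and length came from the GENCODE release 29 basic transcript with the longest coding sequence (93.1% of genes), in 5 by 5 classes. Promoters came from RefSeq. Named genes were C1orf106, the core subunits, the 3 highest and 3 lowest members of a complex, members past 1.2-fold, isoforms, members with neighbours at 0.2 or more in size, and the highest and lowest gene of each list. Some values that this rule covers are not reported here. Other genes were named for their role or place in the order after their values were seen. The computation was tested on simulated data. Members and lists were chosen with earlier results of these data known. Python 3.11.15, numpy 2.4.6, pandas 2.3.3 and matplotlib 3.10.9 were used. Alternatives were other pseudocounts, filters, scalings and member sets.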

Additional observations from a re-analysis of the deposited data

How the results depend on the processing

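No paired analysis was possible because both libraries of a group were merged into 1 FPKM per gene, and for the same reason neither the replicate block nor leaving out a library was run. The alternatives that subtract like GC content and length or like level, and the one without the 3 members in shifted neighbourhoods, were chosen after seeing the data. A median was taken as moved when it shifted by over 0.05, a count when it changed by over 1.5 times, and a single member when it crossed 1.2-fold or, relative to neighbours, shifted by over 0.1. No median of a complex changed sign in any alternative run, but 6 members lost their sign with quantile normalization, 4 of them in complex V. With quantile normalization the medians of complexes III and V were 0.027 and 0.0074, that of all members 0.048 with 53 of 81 higher, and 49.5% of genes at 20 FPKM or more were higher. Relative to neighbours the medians of complexes I, II and III were 0.031, 0.007 and 0.045, against 0.083, 0.057 and 0.085 as deposited, and the subtraction left 0 members at least 1.2-fold lower. At 1.5-fold, 0 members were higher and 0 lower. Without the 3 members in shifted neighbourhoods 1 was at least 1.2-fold lower. The last 2 alternatives lower a count by construction, with a higher bar or fewer members, and the cause of the quantile shift was not tested. Of 165 values recomputed, 157 kept their direction and stayed within these limits. This count is a weak check, because the limit of 0.05 is close to the medians as deposited, 0.057 to 0.092. The median of complex II relative to neighbours, 0.007, thus counts as kept. Some values could not move, such as that of complex II when NDUFA4 was counted with complex I. NDUFC2-KCTD14 was at -0.26 with a pseudocount of 1, just under 1.2-fold. The median of all members ranged from 0.048 to 0.085, and ATP5E from 0.45 to 0.51. With depth unknown, no counting error can be given.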
